A study of Mus musculus with 9 samples.

Results

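The genes described here are the nuclear genes of the mitochondrial respiratory chain and ATP synthase, the complexes I to V of oxidative phosphorylation. They were chosen by name: every array feature whose annotation gave a single gene symbol beginning with Nduf, Uqcr, Cox4 to Cox8 or Atp5, or equal to Sdha, Sdhb, Sdhc, Sdhd, Cyc1 or Cycs, with the feature of the highest mean kept for each gene. That gave 91 genes, from 104 features, of the 22180 genes measured. They comprised 32 subunits of complex I (6 of its core and 26 accessory), 8 complex I assembly factors (the Ndufaf genes), 4 genes of complex II, 8 of complex III, cytochrome c, 19 of complex IV, 17 of complex V and 2 pseudogenes. Another 9 symbols of the same kind sat only on features shared by several genes (Cox6c, Ndufb2, Ndufb4, Ndufb4b, Ndufb4c, Ndufs5-ps, Ndufs6, Ndufs6b and Uqcr10) and were not analysed here.

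The samples came from TAMH cells, an immortal mouse hepatocyte line derived from mice carrying a TGF-alpha transgene, at passages 30 to 40. All 3 groups were kept for 9 h: the control in medium alone (CON), the second with 18 µM diquat (DQ) and the third with 126 µM paraquat (PQ). Each group had 3 arrays, from total RNA on Affymetrix Mouse Gene 2.1 ST arrays, and the values are log2 expression levels, so that a difference of 1 is a doubling. The labels describe 3 culture dishes per treatment and do not state how far the dishes were grown apart, and p-values therefore cover the spread among these arrays alone, some of which may be technical. Levels of different genes come from different probes and are not compared with each other.

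Complex I takes electrons from NADH and complex II takes them from succinate, and both pass them to coenzyme Q. Complex III passes them on to cytochrome c and complex IV to oxygen, and complexes I, III and IV pump the protons that drive the ATP synthase, complex V. Most subunits are made from nuclear genes and imported, while a small core set is encoded in mitochondrial DNA. Diquat and paraquat are bipyridylium herbicides that accept single electrons from cellular reductases, complex I among the sites described for paraquat, and hand them to oxygen to form superoxide.

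Promoters of nuclear respiratory genes are known for sites of NRF1, of ETS factors such as GABPA and of YY1. In RefSeq promoter windows of the mouse assembly GRCm38.p6, 300 bases from 250 before the start of transcription to 50 after it, 73 of the 91 genes had an entry. The letters GCGCATGCG (NRF1), searched on both strands, occurred in 11 of these 73 genes (15.1%), against 1.95% of all 27025 genes with such a window and 2.61% of the 17491 coding genes. AAGATGGCG (YY1) occurred in 7 (9.59%), against 1.64% of all genes and 2.14% of coding genes. CCGGAAGT (ETS/GABPA) occurred in 5 (6.85%), against 4.31% and 5.69%. At least 1 of the 3 motifs occurred in 22 members, and no stretch printed below holds more than 1 of them. The stretches printed next, each of 29 bases around a match, belong to the genes that gave the extreme changes described further on, the cytochrome c gene and Ndufaf4 at the high end and Uqcrc1 and Ndufa9 at the low end, with Cox6a1 as a member whose level barely moved. Capitals mark the match, which runs 1 base longer where both strands match. A match is a string of letters, not a shown binding site.
Cycs, NRF1, chr6:50566612-50566640, minus strand, 61 bases before the start: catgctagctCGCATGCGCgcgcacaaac
Ndufaf4, NRF1, chr4:24897960-24897988, plus strand, 113 bases before the start: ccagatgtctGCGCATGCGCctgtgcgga
Uqcrc1, NRF1, chr9:108936668-108936696, plus strand, 30 bases after the start: actccgctctGCGCATGCGCagcgcggct
Cox6a1, NRF1, chr5:115349102-115349130, minus strand, 162 bases before the start: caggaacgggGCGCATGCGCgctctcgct
Ndufa9, YY1, chr6:126849097-126849125, minus strand, 29 bases after the start: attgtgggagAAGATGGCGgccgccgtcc

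The treated cells had responded at 9 h. The cystine importer gene Slc7a11 rose by 2.62 with diquat and 2.40 with paraquat on the log2 scale, the stress factor gene Ddit3 by 0.80 and 1.09, and the heme oxygenase gene Hmox1 by 0.72 and 0.57 (limma, adjusted p from 1.84e-07 to 0.000314). Over all genes, 1558 passed limma's adjusted p of 0.05 for diquat and 1014 for paraquat. The diquat array of replicate 3 stood apart, at a root-mean-square difference of 0.134 from its group mates against 0.0714 to 0.115 for the other 8 arrays. The hepatocyte marker Alb lay at 12.73 in each group mean, while 5 of 9 measured hepatocyte markers fell with diquat and 3 with paraquat. The log2 of the summed level of these 9 was 14.05 to 14.11 in control, 13.92 to 13.94 with diquat and 13.89 to 14.02 with paraquat. Among markers of other liver cells, Sox9 rose with both compounds and Cd68 with diquat, Krt19 and Krt7 fell with diquat, and no endothelial (4 genes) or stellate and fibroblast (5 genes) marker passed. The part of these shifts in the results below was not tested.

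The respiratory chain genes moved little. With diquat, 4 of the 91 fell and 0 rose: Ndufa9, Ndufa2 and Ndufv3 of complex I and Uqcrc1 of complex III, by 1.12-fold to 1.15-fold. With paraquat, 1 fell, Ndufv3, by 1.14-fold, and 0 rose. Of all 22180 genes, 2.89% were called lower and 4.13% higher with diquat, and 2.24% lower and 2.33% higher with paraquat. The 4 members lower with diquat make 4.40% of 91 and the 1 lower with paraquat makes 1.1%, so neither share lies far from that of all genes. The balance depended on how the arrays were scaled: of the diquat calls over all genes, 917 were higher and 641 lower as deposited, against 1079 and 300 with arrays centred on their medians, where 0 of the 91 genes were called. At an unadjusted p under 0.05, 14 members differed with diquat (4 higher, 10 lower) and 8 with paraquat (1 higher, 7 lower), which is 15.4% and 8.79% of the 91 against 21.6% and 15.0% of all genes. The median change over the 91 was 0.003 with diquat (-0.019 after quantile normalization), in a range from -0.20 to 0.29, and -0.013 with paraquat, in a range from -0.19 to 0.14. Over all genes the medians were -0.017 and -0.003.

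The arrays bounded most members closely. For 81 of the 91 genes the 95% interval of the diquat change lay inside 1.2-fold either way, and the same number held for paraquat, where all genes gave 79.5% for diquat and 84.8% for paraquat. The median half-width of the interval was 0.104 on the log2 scale. Arrays of the 2 groups that do not overlap were counted as well: with diquat, 5 members had all 3 treated arrays above all 3 control arrays (all genes 10.1%) and 13 had them below (all genes 11.2%). With paraquat the counts were 3 above (all genes 9.05%) and 13 below (all genes 10.4%). The 13 members lower are 14.3% of the 91 for each compound. The same 3 control arrays serve both comparisons, so these counts are not independent of each other.

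**Figure D1:**
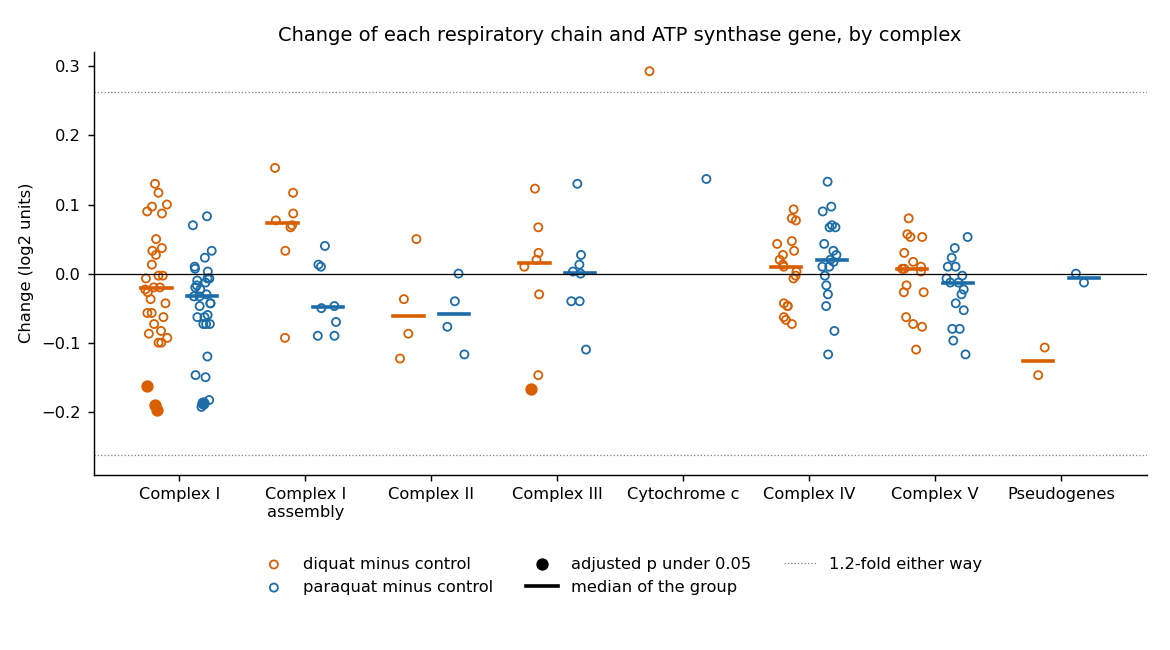
Change of each of the 91 genes against control on the log2 scale, by complex, with diquat (orange) and paraquat (blue); each circle is 1 gene, filled where limma's adjusted p was under 0.05, and bars are group medians. The 5 filled points, 4 for diquat and 1 for paraquat, all lie below 0, and only the cytochrome c gene with diquat, at 0.29, lies outside the dotted lines at 1.2-fold.

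Complex I held 3 of the 4 calls with diquat and the call with paraquat. These were 9.38% and 3.12% of its 32 genes, against 2.89% and 2.24% of all genes called lower. The median change of complex I was -0.022 with diquat, which turned to 0.015 when each array was centred on its median, and -0.033 with paraquat. As deposited, 21 of its 32 genes lay below 0 with diquat and 25 with paraquat. Of all 22180 genes, 12729 lay below 0 with diquat and 11215 with paraquat. The calls were all among the 26 accessory subunits, which surround the catalytic core. Ndufa9, an accessory subunit at the junction of the membrane and peripheral arms, lay at 10.34, 10.24 and 10.29 in control, at 10.05, 10.05 and 10.18 with diquat and at 10.12, 10.13 and 10.07 with paraquat. Every treated array was below every control array. It fell by 0.20 with diquat (SE 0.046, limma adjusted p = 0.0309), and its paraquat change of -0.18 did not pass (adjusted p = 0.054).

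Ndufa2, an accessory subunit of the peripheral arm, lay at 9.68, 9.66 and 9.61 in control, at 9.42, 9.45 and 9.51 with diquat and at 9.54, 9.50 and 9.55 with paraquat. Again no treated array reached a control array, and the diquat arrays were the lower of the treated groups on average. The fall with diquat was 0.19 (SE 0.038, limma adjusted p = 0.0152), and the paraquat change was -0.12 (adjusted p = 0.131). Ndufv3, a small subunit of the NADH-binding module, lay at 7.66, 7.72 and 7.61 in control, at 7.50, 7.47 and 7.53 with diquat and at 7.53, 7.47 and 7.43 with paraquat. It was the member that fell with both compounds, by 0.16 with diquat (SE 0.042, adjusted p = 0.0453) and by 0.19 with paraquat (SE 0.042, adjusted p = 0.0325).

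None of the 6 core subunits measured, which carry the flavin, the iron-sulfur clusters and the quinone site, passed the test for either compound. Ndufv1, which binds NADH and the flavin, lay at 10.37, 10.33 and 10.35 in control and at 10.28, 10.23 and 10.24 with diquat, below all controls. Its diquat change was -0.10 (95% interval -0.17 to -0.027, adjusted p = 0.108). With paraquat Ndufv1 was at 10.33, 10.34 and 10.36, inside the control range. The other core subunits, Ndufv2, Ndufs1, Ndufs3, Ndufs7 and Ndufs8, had diquat changes from -0.043 to 0.033 and paraquat changes from -0.073 to 0.010.

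At the upper end with diquat was Ndufab1, the mitochondrial acyl carrier protein that also sits in complex I. Ndufab1 lay at 7.37, 7.40 and 7.41 in control, at 7.49, 7.46 and 7.62 with diquat and at 7.40, 7.34 and 7.37 with paraquat. The 3 diquat arrays were the highest, at a change of 0.13 (95% interval 0.029 to 0.231) that did not pass (limma adjusted p = 0.129). With paraquat the extremes were Ndufa3 at 0.083 and Ndufb7 at -0.19, and neither passed (adjusted p = 0.518 and 0.235). Ndufb7, an accessory subunit of the membrane arm, lay at 8.55, 8.53 and 8.50 in control and at 8.51, 8.24 and 8.25 with paraquat. Its groups overlapped through paraquat replicate 1. Without that array, the one nearest the controls, Ndufb7 was lower by 0.28 (limma adjusted p = 0.0325). This was the 1 alternative of 17 with a call, and adjusted p in the others reached 0.566. Of the 32 genes, 28 had diquat intervals and 27 had paraquat intervals inside 1.2-fold.

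**Figure D2:**
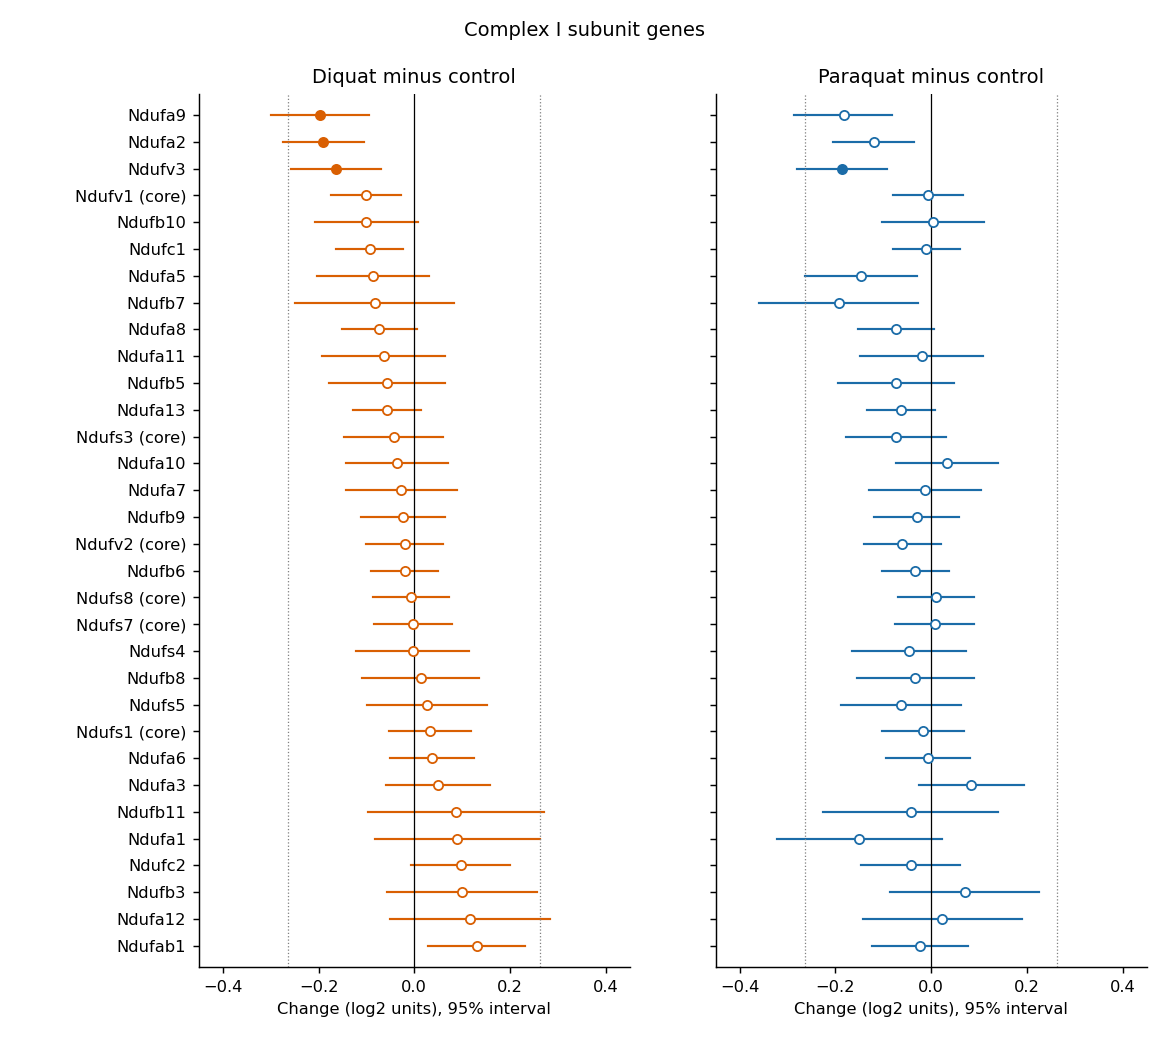
Change against control (log2, points) with 95% intervals (lines) for the 32 complex I subunit genes, ordered by the diquat change, with diquat on the left and paraquat on the right; filled points passed limma's adjusted p of 0.05 and dotted lines mark 1.2-fold. Ndufa9, Ndufa2 and Ndufv3 are the filled points for diquat and Ndufv3 for paraquat, and the core subunits lie between -0.10 and 0.033 with diquat.

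The 8 Ndufaf genes, whose products assemble complex I without staying in it, gave no call. Their median change was 0.073 with diquat and -0.048 with paraquat, and 7 of 8 lay above 0 with diquat against 3 with paraquat. Of all 22180 genes, 9094 lay above 0 with diquat and 10456 with paraquat. Ndufaf4, an early assembly factor, had the highest diquat change of the 8. It lay at 7.79, 7.75 and 7.86 in control, at 7.85, 7.91 and 8.10 with diquat and at 7.85, 7.77 and 7.90 with paraquat. The lowest diquat array lay just under the highest control array, and the change of 0.15 (95% interval 0.010 to 0.297) did not pass (limma adjusted p = 0.205). Ndufaf1, another early factor that acts on the membrane arm, had changes of 0.070 with diquat and -0.047 with paraquat. The lowest were Ndufaf7, a methyltransferase that modifies a core subunit, at -0.093 with diquat, and Ndufaf3 at -0.090 with paraquat.

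Complex II, succinate dehydrogenase, has all its subunits encoded in the nucleus and is shared with the citric acid cycle. The median of its 4 genes was -0.062 with diquat and -0.058 with paraquat, and none was called. With arrays centred on their medians these became -0.025 and -0.052. Sdha, the flavin-bearing subunit that oxidizes succinate, lay at 10.65, 10.76 and 10.65 in control, at 10.53, 10.54 and 10.62 with diquat and at 10.60, 10.58 and 10.53 with paraquat. All 6 treated arrays were below the 3 controls, at changes of -0.12 with diquat (95% interval -0.221 to -0.025, limma adjusted p = 0.139) and -0.12 with paraquat (95% interval -0.215 to -0.019, adjusted p = 0.221). Sdhb, the iron-sulfur subunit, lay within 8.35 to 8.42 on all 9 arrays. The membrane anchors Sdhc and Sdhd had diquat changes of -0.087 and 0.050 and paraquat changes of -0.077 and -0.040, with overlapping arrays.

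In complex III the clearest difference was in Uqcrc1, which encodes core protein 1 on the matrix side of the complex. Uqcrc1 lay at 11.05, 11.07 and 11.05 in control, at 10.88, 10.89 and 10.90 with diquat and at 11.03, 10.99 and 11.03 with paraquat. The 3 groups did not overlap, and the arrays of each were within 0.04 of each other. The fall with diquat was 0.17 (1.12-fold, SE 0.032, limma adjusted p = 0.0118), and the paraquat change was -0.040 (adjusted p = 0.676). Its partner Uqcrc2, core protein 2, did not go with it, at changes of 0.020 with diquat (95% interval -0.057 to 0.097) and 0.013 with paraquat.

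Uqcrq, a small supernumerary subunit, was the highest member of complex III for both compounds. It lay at 7.47, 7.45 and 7.36 in control, at 7.48, 7.54 and 7.63 with diquat and at 7.56, 7.56 and 7.55 with paraquat. All treated arrays were above the controls, the nearest by 0.01, and neither the diquat change of 0.12 (95% interval 0.021 to 0.226, limma adjusted p = 0.155) nor the paraquat change of 0.13 (adjusted p = 0.189) passed. The electron carriers Cyc1, cytochrome c1, and Uqcrfs1, the Rieske iron-sulfur protein, had diquat changes of -0.030 and 0.067. With paraquat Cyc1 was at 0.027 and Uqcrfs1 at 0.000. The lowest with paraquat was Uqcrh, the hinge protein, at -0.11, whose control arrays themselves ran from 8.85 to 9.18. The medians of the 8 genes were 0.015 with diquat, or -0.007 after quantile normalization, and 0.002 with paraquat.

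Cytochrome c, the carrier between complexes III and IV and a trigger of apoptosis once released from mitochondria, had the highest diquat change of all 91 genes. Cycs lay at 11.00, 10.87 and 11.01 in control, at 11.10, 11.13 and 11.53 with diquat and at 11.19, 11.07 and 11.03 with paraquat. Both treated groups lay above the controls, but diquat replicate 3 was 0.40 above its nearest group mate. The diquat change was 0.29 (SE 0.102, 95% interval 0.067 to 0.520, limma adjusted p = 0.129), and 0.16 without diquat replicate 3 (adjusted p = 0.192). The paraquat change was 0.14 (adjusted p = 0.65). Cycs had 5 features on the array, and the change of 0.29 comes from the brightest. The rest gave diquat changes from 0.057 to 0.100, and a pair of them held identical values. Which of the 5 lies at the gene whose promoter is printed above was not checked. With the mean over its features Cycs was at 0.13 with diquat (adjusted p = 0.33).

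**Figure D3:**
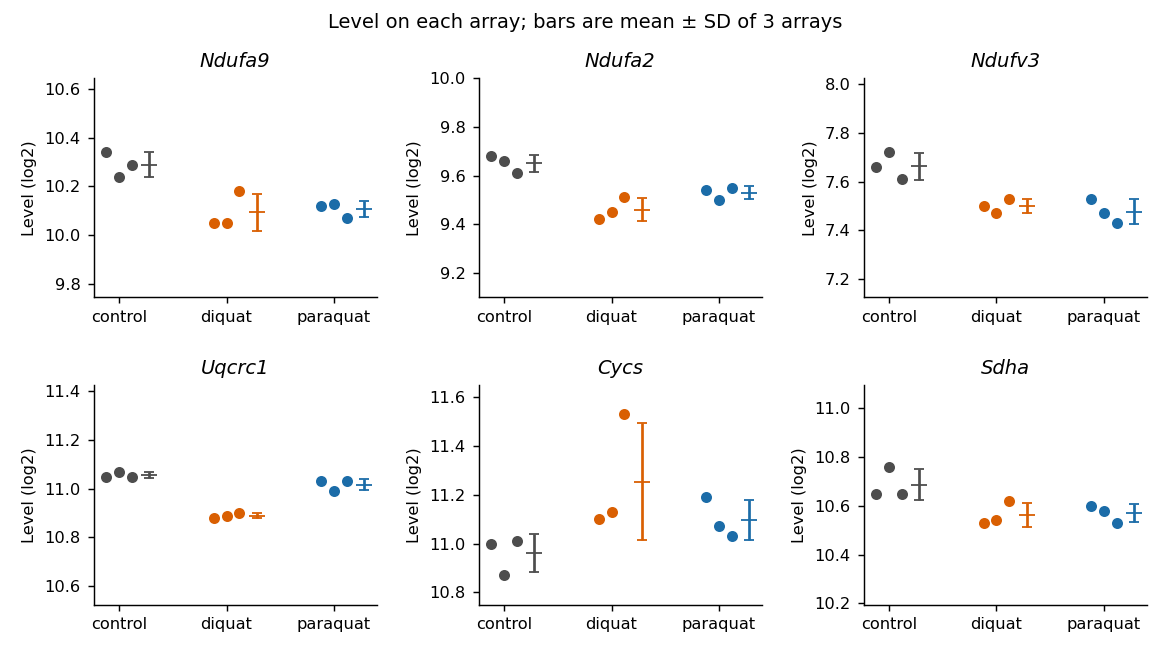
Log2 level on each array (points) with mean ± SD (bars, n = 3) in control, diquat and paraquat arrays for Ndufa9, Ndufa2, Ndufv3, Uqcrc1, Cycs and Sdha; each panel has its own level axis. Uqcrc1 shows diquat arrays of 10.88 to 10.90 below all others, and Cycs shows the diquat array of replicate 3 at 11.53 above its group mates.

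Complex IV, cytochrome c oxidase, held no call. Its 19 genes, including Ndufa4 and Ndufa4l2, which carry complex I names but whose products belong with complex IV, ran from -0.073 to 0.093 with diquat, and all 19 diquat intervals lay inside 1.2-fold. The median was 0.010 with diquat, or -0.005 after quantile normalization, and 0.020 with paraquat. The latter turned to -0.003 when genes dimmer than the median gene were left out. Cox4i1, the regulatory subunit found in most tissues, lay at 9.98, 10.05 and 9.98 in control, at 10.06, 10.03 and 9.98 with diquat and at 9.98, 9.91 and 9.98 with paraquat. The ranges overlapped throughout. Cox6a1, the liver form of its subunit, lay between 11.97 and 12.06 on all 9 arrays. The subunits Cox5b, Cox7a2, Cox7a2l, Cox8a and Ndufa4 had diquat changes between -0.047 and 0.043 and paraquat changes between -0.030 and 0.070.

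Cox5a, which with Cox5b faces the matrix, was the lowest of complex IV with paraquat. It lay at 9.43, 9.51 and 9.40 in control, at 9.39, 9.31 and 9.45 with diquat and at 9.34, 9.27 and 9.38 with paraquat. The paraquat arrays were below the controls, at a change of -0.12 (95% interval -0.226 to -0.008) that did not pass (limma adjusted p = 0.287). The 8 isoforms known mainly from other tissues (Cox4i2, Cox6a2, Cox6b2, Cox7a1, Cox7b2, Cox8b, Cox8c and Ndufa4l2) had group means from 4.60 to 6.45, and no call. Cox6a2, the heart and muscle form, read 6.32 on each control array, 6.23, 6.32 and 6.28 with diquat and 6.54, 6.53 and 6.29 with paraquat. Its paraquat change was 0.13 (adjusted p = 0.354), and 0.22 without paraquat replicate 3 (adjusted p = 0.0274). That replicate was the paraquat array nearest the controls, and this was the 1 alternative of 16 with a call. Of these 8, 7 were above 0 with paraquat and 4 with diquat, against 10456 and 9094 of all 22180 genes. Group means of these 8 reached no higher than about the median of gene means, 6.42, in a range of 3.89 to 13.19. Such levels cannot be separated from background without detection calls, which were not used here. The same limit holds for other members this dim.

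Complex V, the ATP synthase, also gave no call among 17 genes. Its median was 0.007 with diquat, or -0.014 after quantile normalization, and -0.013 with paraquat, and all 17 diquat intervals and 15 paraquat intervals lay inside 1.2-fold. Atp5b, the catalytic beta subunit, lay between 12.45 and 12.50 on all 9 arrays. Atp5a1, the alpha subunit that forms the catalytic ring with it, lay at 11.50, 11.57 and 11.49 in control, at 11.43, 11.44 and 11.46 with diquat and at 11.46, 11.46 and 11.40 with paraquat. All 6 treated arrays were below the controls, by changes of -0.077 with diquat (adjusted p = 0.262) and -0.080 with paraquat (adjusted p = 0.343). The genes of the proton-carrying c ring, Atp5g1, Atp5g2 and Atp5g3, had diquat changes of -0.063, -0.073 and 0.053 and paraquat changes of -0.007, 0.010 and -0.043.

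The extremes of complex V with diquat were Atp5e at 0.080 and Atp5j2 at -0.11, and with paraquat Atp5d at 0.053 and Atp5h at -0.12. Dimmer features of Atp5e and Atp5h had the other sign, at -0.023 with diquat for Atp5e and 0.047 with paraquat for Atp5h. The Atp5h one had group means of 5.41 to 5.61, which cannot be separated from background here. Atp5j2, a small membrane subunit, lay at 5.59, 5.68 and 5.59 in control and at 5.50, 5.49 and 5.54 with diquat, all below the controls, and did not pass (limma adjusted p = 0.117). Atp5d, the delta subunit of the central stalk, also depended on the feature read. Its brighter feature gave paraquat arrays of 11.26, 11.19 and 11.18 against controls of 11.19, 11.12 and 11.16. Its other feature gave 10.54, 10.42 and 10.34 against 10.10, 9.87 and 9.99, a difference of 0.45. With the mean of both features Atp5d was higher with paraquat by 0.25 (adjusted p = 0.0246).

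The 2 pseudogenes, Atp5c1-ps and Uqcrh-ps1, had group means between 4.37 and 5.13. Their diquat changes were -0.15 and -0.11 and their paraquat changes -0.013 and 0.000, without a call. Many genes of these complexes have close copies elsewhere in the genome, and how probes divide between a gene and its copies was not tested.

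Diquat and paraquat were given at different concentrations, 18 and 126 µM, so the difference between them is not one at matched dose. In the fit of the paraquat against the diquat arrays, 0 of the 91 genes passed (0.0% of all genes), while 14 had an unadjusted p under 0.05 in limma, 6 higher with paraquat and 8 lower. All genes together also gave 0, with 2371 at an unadjusted p under 0.05 (10.7%, against 15.4% of the members). For 76 members the 95% interval lay inside 1.2-fold (all genes 87.0%), and for 7 the paraquat arrays lay above all diquat arrays and for 8 below (all genes, either way, 10.5%). The lowest adjusted p of a member was 0.339, for Uqcrc1, which was higher with paraquat by 0.13 (95% interval 0.056 to 0.197). Ndufa1, a membrane-arm subunit, had the largest difference, lower with paraquat by an estimate of -0.24 (95% interval -0.412 to -0.068, adjusted p = 0.39). Ndufa1 lay at 7.70, 7.62 and 7.92 with diquat and at 7.62, 7.45 and 7.45 with paraquat, so the groups met at 7.62 and the highest array was diquat replicate 3. The Ndufaf assembly factors had a median difference of -0.115, with 7 of 8 lower with paraquat, and 0 calls. Of all 22180 genes, 9899 were lower with paraquat. The same diquat arrays enter this comparison and the one against control.

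Array by array, the complex II median lay apart from the controls, and the medians of the other complexes overlapped or met them. Set against the control mean, the median complex I gene lay at 0.013, -0.018 and -0.007 on the control arrays, at -0.025, -0.038 and -0.008 with diquat and at -0.018, -0.045 and -0.027 with paraquat. The complex I ranges of control and paraquat met at -0.018. Complex II lay at 0.005, -0.010 and -0.018 on the control arrays, at -0.055, -0.085 and -0.045 with diquat and at -0.030, -0.063 and -0.080 with paraquat, with every treated array below the controls. For complexes III, IV and V the treated and control arrays overlapped. Complex II was not alone among the gene groups. Medians of the citric acid cycle and of other inputs to coenzyme Q, described below, also lay under the controls on every treated array. Those of the biogenesis regulators lay above them. With paraquat alone, the Ndufaf factors and the accessory subunits of complex I lay below the controls. The median over all genes moved between -0.020 and 0.003 on the same arrays.

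**Figure D4:**
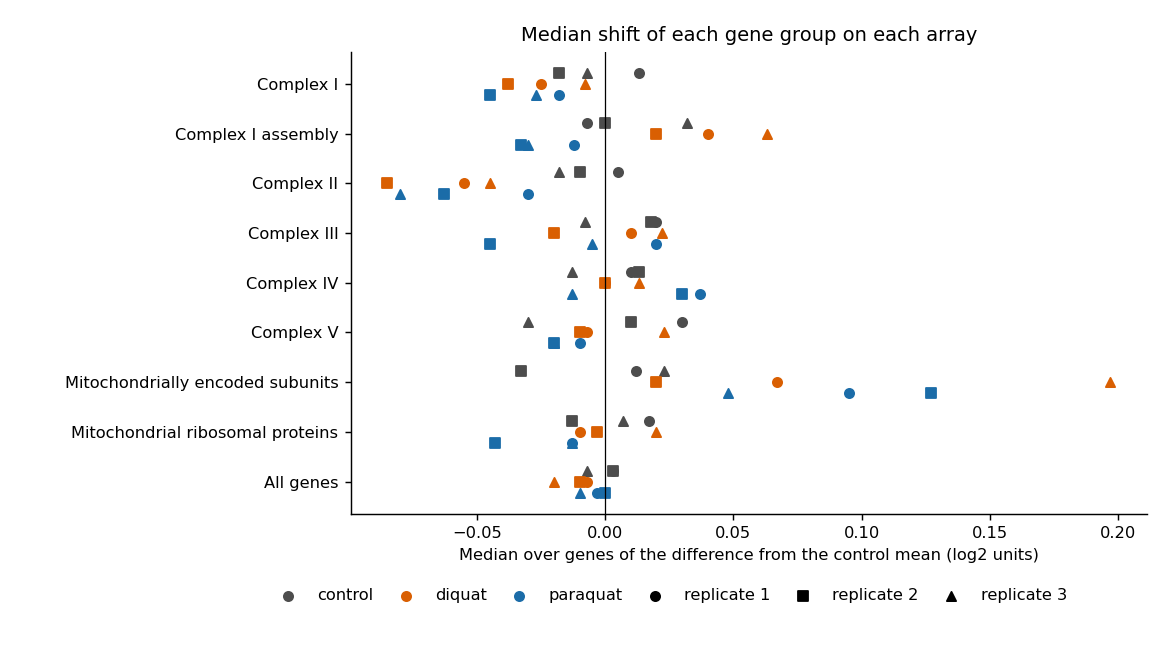
Median over the genes of each group of the difference (log2) between each of the 9 arrays and the control mean (colours for treatment, shapes for replicate). Complexes I to V lie between -0.085 and 0.037, while the mitochondrially encoded subunits reach 0.197 on the diquat array of replicate 3. The mitochondrial ribosomal proteins shown are the Mrpl genes alone.

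Genes of the same pathway outside the rule were read from lists of known members. The 10 mitochondrially encoded subunits measured, transcribed from mitochondrial DNA as long shared precursors, gave no call. All 10 changes were above 0 with each compound, against 9094 of all 22180 genes with diquat and 10456 with paraquat. The median of the 10 was 0.097 with diquat, 0.036 without diquat replicate 3, and 0.093 with paraquat. After quantile normalization the medians with diquat and paraquat were 0.037 and 0.042. ND3, a subunit of the complex I membrane arm, lay at 12.08, 12.08 and 12.18 in control, at 12.21, 12.20 and 12.37 with diquat and at 12.25, 12.24 and 12.22 with paraquat, above all controls (limma adjusted p = 0.129 and 0.276). ND6, on the other strand of mitochondrial DNA, spread too widely to place, from 5.97 to 6.56 in control and up to 6.99 with either compound. With paraquat, 8 of the 10 had all arrays above the controls (all genes 9.05%), and with diquat 3 (all genes 10.1%).

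Assembly factors outside the rule gave 1 call lower of 41 with diquat (2.44%, all genes 2.89%) and 4 lower with paraquat (9.76%, all genes 2.24%), and 0 higher. Cmc2, a twin-cysteine protein of complex IV assembly, lay at 8.98, 8.92 and 9.02 in control, at 8.72, 8.62 and 8.63 with diquat and at 8.77, 8.73 and 8.72 with paraquat. It fell with both, by 0.32 with diquat (SE 0.042, limma adjusted p = 0.00154) and by 0.23 with paraquat (SE 0.042, adjusted p = 0.0105), and for paraquat lost its call without paraquat replicate 3 (adjusted p = 0.0511). The other falls with paraquat were Cox20, a chaperone of the complex IV subunit COX2, by 0.30 (adjusted p = 0.032), Sdhaf4, a factor for complex II, by 0.23 (adjusted p = 0.0306), and Tmem126b, a factor for complex I, by 0.22 (adjusted p = 0.0196). Each of these 3 lost its call when single arrays were left out: Cox20 without control replicates 1 or 3 or paraquat replicates 2 or 3 (adjusted p from 0.114 to 0.138), Sdhaf4 without control replicates 1 or 2 or paraquat replicates 2 or 3 (from 0.0994 to 0.132), and Tmem126b without control replicates 1 or 3 or any paraquat replicate (from 0.0515 to 0.0901). With arrays centred on their medians the 3 were not called either (adjusted p = 0.0538, 0.0695 and 0.0577), nor was Sdhaf4 in a fit of the 6 arrays compared (adjusted p = 0.0543). With the replicate number as a block, Cox20 and Sdhaf4 lost their calls (adjusted p = 0.0544 and 0.0639).

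Mitochondrial ribosomal proteins serve translation of the mitochondrially encoded subunits. The list read here held 43 Mrpl genes, named for the large ribosomal subunit, and left out the Mrps genes of the small one. Of these 43, 2 fell with diquat (4.65%, all genes 2.89%) and 3 with paraquat (6.98%, all genes 2.24%), and 0 rose. Mrpl50 lay at 9.27, 9.14 and 9.22 in control, at 8.84, 8.87 and 8.96 with diquat and at 8.96, 8.82 and 8.86 with paraquat, a fall of 0.32 and 0.33 (limma adjusted p = 0.00521 and 0.00528). Mrpl18 fell by 0.23 and 0.26 (adjusted p = 0.00351 and 0.00228), and Mrpl51 by 0.20 with paraquat (adjusted p = 0.00987). These 5 calls held under all 17 alternatives. The list as a whole had a median of -0.013 with diquat and -0.020 with paraquat.

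Of 21 regulators of mitochondrial biogenesis and mitochondrial DNA expression, 1 rose and 1 fell with diquat (4.76% each, all genes 4.13% and 2.89%). With paraquat 1 fell (4.76%, all genes 2.24%). Twnk, the mitochondrial DNA helicase, rose with diquat by 0.32 (limma adjusted p = 0.0103), from 7.85, 7.84 and 7.84 to 8.27, 8.20 and 8.01. Its paraquat change of 0.13 was called only in the fit of the 6 arrays compared (adjusted p = 0.0418). Tfb1m, a methyltransferase of the mitochondrial ribosomal RNA, fell by 0.21 with diquat (adjusted p = 0.0103; 0.0507 with arrays centred on their medians) and by 0.16 with paraquat (adjusted p = 0.0383). For paraquat Tfb1m passed in 10 of 17 alternatives and lost its call without control replicates 1 or 3 or any paraquat replicate and after centring (adjusted p from 0.0895 to 0.141). This paraquat call was also lost with the replicate number as a block (adjusted p = 0.0693). Of 12 coenzyme Q synthesis genes, 1 fell with diquat (8.33%, all genes 2.89%) and 0 passed with paraquat. This was Coq9, lower with diquat by 0.25 (limma adjusted p = 0.0209). The call did not hold without control replicate 1 or 2 or diquat replicate 3 (adjusted p = 0.0836, 0.0845 and 0.0578).

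Of 8 genes of other routes into coenzyme Q, 1 rose and 1 fell with diquat (12.5% each, all genes 4.13% and 2.89%). With paraquat 1 fell (12.5%, all genes 2.24%). Sqor, the sulfide oxidizing enzyme, rose with diquat by 0.28 (limma adjusted p = 0.00521). Its paraquat change of 0.18 was not called in the fit reported. It was called with array weights, without dim genes and without diquat replicate 2 (adjusted p = 0.0208, 0.0276 and 0.0404). Etfdh, which passes electrons from fatty acid oxidation to coenzyme Q, fell with both compounds, by 0.20 with diquat (adjusted p = 0.0286) and by 0.28 with paraquat (adjusted p = 0.00793). The Etfdh fall with diquat was not called without any 1 of the control arrays or without diquat replicate 1 or 2 (adjusted p from 0.056 to 0.101), nor after centring (adjusted p = 0.093). Nor was it called with the replicate number as a block (adjusted p = 0.0595). Of 12 citric acid cycle genes 0 passed with either compound. Suclg2, a subunit of succinyl-CoA ligase, had the lowest change with each, of -0.14 with diquat (limma adjusted p = 0.0933) and -0.16 with paraquat (adjusted p = 0.084), and passed for both with array weights and after quantile normalization (adjusted p from 0.031 to 0.0469). Dlst, of the 2-oxoglutarate dehydrogenase complex, lay at 0.14 with diquat (adjusted p = 0.0617), with all diquat arrays above the controls, and at -0.013 with paraquat. Its partner Ogdh lay at -0.12 with diquat and -0.14 with paraquat, and Sucla2, of the same ligase as Suclg2, at -0.083 and -0.14. Of 8 genes of nucleotide and phosphate exchange, 1 rose with diquat (12.5%, all genes 4.13%). This was Vdac2, an outer membrane channel, higher by 0.15 (limma adjusted p = 0.0275). Its call was lost without control replicate 1 or 2 or diquat replicate 3 (adjusted p = 0.0891, 0.112 and 0.0618). In the fit of the 6 arrays compared it was lost too (adjusted p = 0.0582). The Vdac2 call was also lost with the replicate number as a block (adjusted p = 0.0578).

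Members whose promoter window held the NRF1 letters did not move together. The 11 genes had a median change of -0.003 with diquat, with 5 above and 6 below 0. They ran from Uqcrc1 at -0.17 to Cycs at 0.29, the latter read from its brightest feature. The sequences of both are printed above. With paraquat their median was 0.010, with 7 above 0. The 7 genes with the YY1 letters had a median of -0.003 with diquat, Ndufa9 being the lowest at -0.20, and -0.030 with paraquat. The 5 genes with the ETS/GABPA letters had medians of -0.027 and -0.073.

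The calls themselves sat close to the threshold. Uqcrc1 passed with diquat under 15 of 17 alternatives and missed it without control replicate 2 and with arrays centred on their medians (limma adjusted p = 0.054 and 0.0951). Ndufa2 passed with diquat under 13, and missed it without control replicates 1 or 2 or diquat replicate 1 (adjusted p = 0.0679, 0.0638 and 0.0533) and after centring (adjusted p = 0.0955). Ndufa9 passed under 9, and missed it without any 1 of the control arrays or diquat replicates 1 or 2 (adjusted p from 0.0545 to 0.12) and after centring (adjusted p = 0.127). Ndufa9 also missed it in the fit of the 6 arrays compared (adjusted p = 0.082) and with the replicate number as a block (adjusted p = 0.0559). With paraquat Ndufa9, not called in the fit reported, passed under 6 of 17, among them quantile normalization (adjusted p = 0.0184) and the fit without diquat replicate 3 (adjusted p = 0.0207).

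Ndufv3 passed with diquat under 5 of 17 alternatives and with paraquat under 9. For diquat it missed the threshold when any control or diquat array, or paraquat replicates 2 or 3, was left out (limma adjusted p from 0.0518 to 0.17), and for paraquat without control replicates 1 or 2, diquat replicate 1 or paraquat replicates 2 or 3 (adjusted p from 0.0514 to 0.137). It also missed it after centring (adjusted p = 0.173 and 0.0764) and in the fit of the 6 arrays compared (adjusted p = 0.0784 and 0.0538), and for diquat with an intensity trend (adjusted p = 0.061). With the replicate number as a block, Ndufv3 missed it for diquat and for paraquat (adjusted p = 0.0741 and 0.0618). The direction stayed the same in each of these fits. No other member passed with diquat under any alternative except Ndufv1 after quantile normalization (adjusted p = 0.0398), and with paraquat Ndufa2 passed with array quality weights (adjusted p = 0.042).

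**Figure D5:**
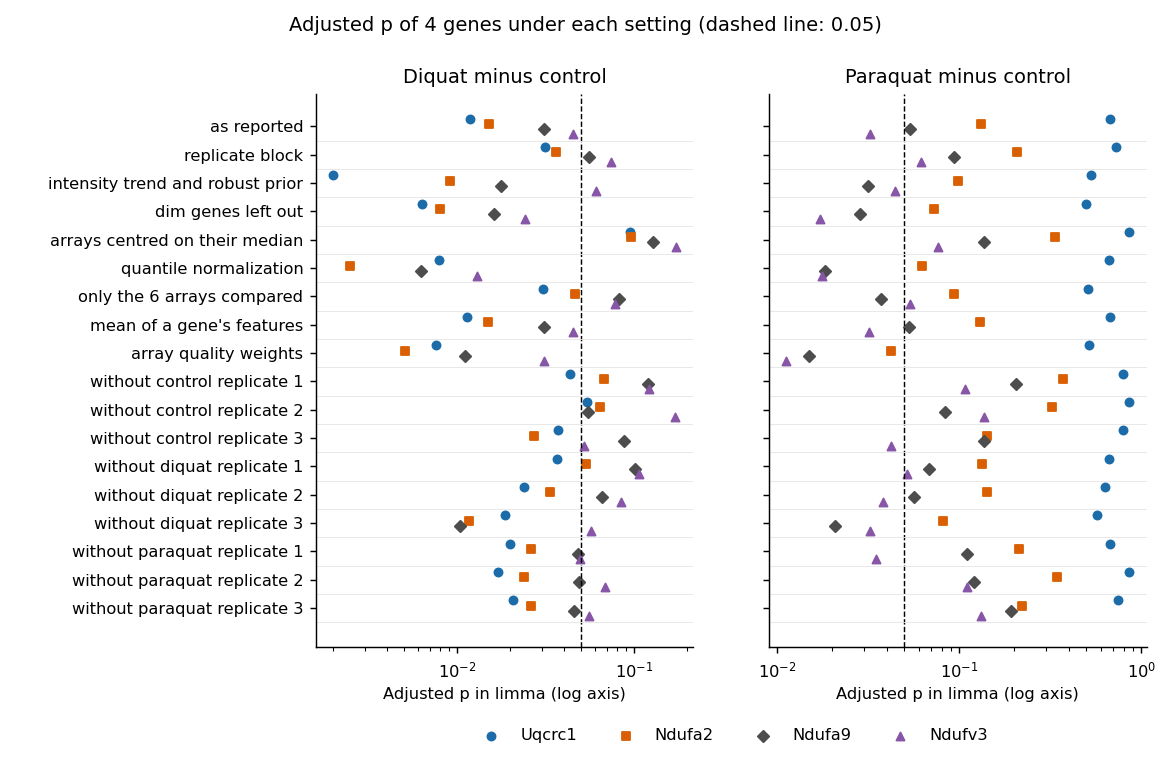
Adjusted p in limma (log axis) of Uqcrc1, Ndufa2, Ndufa9 and Ndufv3 for diquat against control (left) and paraquat against control (right), as reported and under 17 alternative settings; the dashed line is 0.05. With diquat all 4 genes lie left of the line as reported and right of it after arrays were centred on their median, and with paraquat Uqcrc1 lies right of it in every setting.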

How the data were processed

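The values analysed are the log2 expression levels deposited by the authors. The submitters' processing notes name Affymetrix Expression Console 1.1 and RMA, which corrects background, applies quantile normalization and summarises probes. No source used here gives its settings. The table held 34472 features rounded to 2 decimals, with array medians of 5.95 to 6.04 and 0 columns of other samples. Genes were named through the platform annotation from the 23521 features with 1 symbol, and all 91 members matched a RefSeq symbol of GRCm38.p6. The values were fitted in limma 3.58.1 (R 4.3.3; lmFit, eBayes), all 9 arrays in 1 fit with 1 mean per group, and p-values were adjusted by Benjamini-Hochberg over 22180 genes with a threshold of 0.05. The fit was also run on simulated data, with planted changes all larger than those of the members called. That run therefore does not bear on changes as small as theirs. Medians over genes are descriptions without a test. The genes named were members past the threshold, the highest and lowest of each complex per compound, fixed subunits and up to 4 passing genes per list (the top 2 where none passed); Dlst, Ogdh, Ndufb7's, Uqcrh's and Ndufa1's arrays and the pseudogenes were added after their values were seen. The members and lists were chosen with earlier results of these data known. Alternatives covered the replicate block, variance prior, dim genes, array scaling, arrays fitted, features of a gene, array weights, each array left out, and which genes count as members. Replicate numbers came from the titles; for diquat and paraquat, the description field calls replicates 2 and 3 replicate 1 as well, so those numbers are uncertain. Promoter windows and their coordinates are RefSeq's.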

Additional observations from a re-analysis of the deposited data

How the results depend on the processing

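The count of members called with diquat, 4, became 2 with the replicate number as a block, 2 in a fit of the 6 arrays compared and 0 with arrays centred on their medians, and ranged from 0 to 4 when single arrays were left out (0 without control replicate 2, 1 without control replicate 1 or diquat replicate 1, 2 without control replicate 3 or diquat replicate 2). The count with paraquat, 1, became 0 with the replicate block and after centring, 2 with an intensity trend, without dim genes, after quantile normalization and with the mean of a gene's features (1 higher, 1 lower), and 3 with array weights, and ranged from 0 to 2 with arrays left out (0 without control replicates 1 or 2, diquat replicate 1 or paraquat replicate 2; 2 without diquat replicate 3 or paraquat replicate 1). The count between the compounds was 0 in all of these fits. The replicate numbers are shared only as numbers: correlations of same-numbered deviations ran from -0.192 to 0.198, and with the block 1416 genes were called for diquat, 930 for paraquat and 0 between them.

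Of 381 medians recomputed under alternatives, 332 moved by no more than the spread between arrays and 49 by more. Centring took the diquat medians to 0.040 over all members, 0.015 for complex I, 0.110 for its assembly factors, -0.025 for II, 0.052 for III, 0.047 for IV and 0.043 for V, and those of paraquat minus diquat to -0.047, -0.050, -0.145, -0.022, -0.030, -0.027 and -0.060. Quantile normalization took the diquat medians to -0.019 over all members, -0.040 for I, -0.086 for II and -0.014 for V, and those of paraquat minus diquat to 0.002 over all, 0.007 for I, 0.029 for II, 0.025 for III and 0.002 for V. Without dim genes complex IV was at -0.003 with paraquat and -0.025 between the compounds. Between the compounds, the mean of features gave -0.008 for V, array weights -0.086 for the assembly factors, subunits alone -0.027 for IV, and Ndufa4 with Ndufa4l2 in complex I 0.033 for IV.

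With arrays left out, the diquat medians ranged from -0.012 to 0.017 over all members, -0.031 to -0.007 for I, 0.046 to 0.090 for its assembly factors, -0.074 to -0.039 for II, -0.007 to 0.025 for III, -0.012 to 0.022 for IV and -0.005 to 0.017 for V. The paraquat medians ranged from -0.030 to -0.010, -0.044 to -0.031, -0.064 to -0.020, -0.075 to -0.028, -0.028 to 0.013, 0.010 to 0.035 and -0.032 to -0.007 in the same order, and those between the compounds from -0.023 to -0.003, -0.035 to -0.003, -0.135 to -0.061, -0.006 to 0.032, -0.005 to 0.020, -0.023 to 0.028 and -0.038 to -0.005. The causes of these moves were not tested. Signal over background is unknown without detection calls, and 16 of the 91 members had means below 6.42, the median of gene means; 3 arrays a group limit the precision.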
